A study of Drosophila melanogaster
Drosophila virilis with 26 samples.

Results

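The 14331 D. virilis genes of the count table, of 28133 genes in all, were compared between libraries made from RNA with 1% D. virilis and libraries made from D. melanogaster RNA alone (0%). They were chosen by their gene names, which carry the prefix Dvir in the annotation, and the other 13802 genes are those of D. melanogaster. The study mixed total RNA of the 2 species, from pools of whole embryos aged 0 to 4 h, to learn how far low-input RNA-seq protocols respond linearly to known amounts of RNA. Each library here was made by SMART-seq2, which copies full-length poly(A) RNA into cDNA and amplifies it by PCR, from 1 ng of total RNA, with the Nextera tagmentation reaction scaled down to a volume 2.5-fold or 5-fold smaller (the 2.5x and 5x dilutions, in this order wherever a pair of values is given). Strain and genotype are not given in the sources used here, and no group carries a treatment other than the mixture. Each mixture had 1 library per dilution. Both dilutions were tagmented from the same pre-amplified cDNA of a mixture, so a second dilution repeats the tagmentation and the sequencing but not the pre-amplification, and no mixture has a replicate. No test of 1% against 0% RNA is therefore given, and the intervals below compare libraries and cover counting error only.

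An early fly embryo runs on mRNA that its mother placed in the egg, and many transcripts of its own genome appear only later, as the maternal ones are cleared. Among the maternal mRNAs, bicoid and nanos set up the anterior and posterior of the embryo, and oskar organises the germ plasm at the posterior pole. Because the 2 species differ in sequence, most reads can be assigned to one of them, and a D. virilis gene in such a mixture acts as a spike-in whose amount is known from the mixing. Reads on D. virilis genes in the 0% library form the background that a gene has to exceed before it counts as seen.

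The 1% libraries held 17115604 reads on genes at 2.5x dilution and 19177877 at 5x dilution, and the 0% libraries held 12475400 and 14841631. Of these, 148497 reads (0.868%, Wilson 95% interval 0.863 to 0.872%) and 166592 reads (0.869%, 0.865 to 0.873%) fell on D. virilis genes at 1% RNA, against 8009 reads (0.0642%, 0.0628 to 0.0656%) and 9099 reads (0.0613%, 0.0601 to 0.0626%) at 0%. Scaled to the reads on genes, the summed D. virilis signal at 1% was 13.5 and 14.2 times that at 0%. It was 0.0493 of that at 20% RNA in both dilutions, where the mixing gives 0.05. No 0% background was subtracted from these sums, so part of the signal at 1% is background. With it included, the summed D. virilis signal lay close to the mixture, and what differed from gene to gene is described below.

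A D. virilis gene was called above the background where the exact 95% interval of the ratio of its scaled counts, 1% over 0%, lay wholly above 2. By this rule 2734 genes (19.1% of the 14331) were above the background at 2.5x dilution and 2921 (20.4%) at 5x dilution. Both dilutions called 2339 genes (16.3%), which is 85.6% of the calls of the 2.5x dilution and 80.1% of those of the 5x dilution. The same rule called 101 D. melanogaster genes (0.732%) and 128 (0.927%) in the 2 dilutions and 76 (0.551%) in both. These shares are over all 13802 D. melanogaster genes, whose RNA hardly changed in amount. Of them, 6692 and 6693 had no read in the 20% library of the same dilution. With 10 to 49 reads there, the rule called 4.88 and 6.57% of the D. melanogaster genes. Over all 28133 genes of both species, it called 10.1% at 2.5x dilution, 10.8% at 5x dilution and 8.58% in both. An edgeR quasi-likelihood fit with the dilution as a term has only the spread between tagmentations of 1 cDNA. At an adjusted p under 0.05 it put 4093 of the 4618 D. virilis genes it could test (88.6%) higher at 1%, but also 1054 of 7200 D. melanogaster genes (14.6%) higher and 2830 (39.3%) lower, and its calls are not used below. No D. virilis gene had an interval wholly under 0.5 in either dilution, while 145 (1.05%) and 189 (1.37%) D. melanogaster genes did. With no read at 0%, a gene needed 12 reads at 1% to be called. At a twentieth of its rate at 20%, a gene with 224 reads in the 20% library of the 2.5x dilution, or 222 in that of the 5x dilution, is brought to 12 reads.

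At least 1 read was found on 5640 and 5656 D. virilis genes at 1%, against 2672 and 2830 at 0%, and at least 10 reads on 3586 and 3729 genes at 1%, against 124 and 144 at 0%. The presence of a read therefore separated the mixtures poorly, and a minimum of 10 reads separated them well. The 2339 genes called in both dilutions had 12 to 1628 reads at 1% at 2.5x dilution (median 33) and 12 to 1706 at 5x dilution (median 37), so that most rested on few reads. The median level of these genes was 1.93 counts per 1000000 reads on genes (CPM) at 1% in each dilution. Of them, 830 (35.5%) had no read at 0% in either dilution, and 750 had reads at 0% in both, with a median ratio of 18.2 and 18.6. A further 395 genes were called only at 2.5x dilution and 582 only at 5x dilution. In the other dilution, 309 of the 395 and 440 of the 582 still had an interval wholly above 1, and 395 and 580 had the higher scaled count at 1%, so most calls in a single dilution were near the limit of the rule in the other.

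The gene with the highest level at 1% was Hsp83, which encodes the chaperone Hsp90 and is known in D. melanogaster as an abundant maternal mRNA. It had 1628 and 1706 reads (95.1 and 89.0 CPM) in the 1% libraries, against 35 and 46 reads (2.81 and 3.10 CPM) in the 0% libraries. Its ratio was 33.9 (95% interval 24.3 to 48.8) at 2.5x dilution and 28.7 (21.4 to 39.4) at 5x dilution. The next 4 carried only annotation numbers. GJ17887 had 1468 and 1580 reads at 1%, against 16 and 25 at 0%. GJ11479 had 1379 and 1565 reads at 1%, against 21 and 20 at 0%. GJ20466 had 927 and 948 reads at 1%, against 13 and 14 at 0%. GJ23202, with 635 and 741 reads at 1%, against 14 and 18 at 0%, completed these 5, and in none of them did the level in a 0% library come near that in a 1% library. Their ratios lay between 28.7 for Hsp83 and 66.9 for GJ17887. All 5 had reads in the 0% libraries, so their background was measurable. They were taken as the highest at 1% among the genes called in both dilutions. A level at 0% well below that at 1% follows from this choice and is not a result.

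Of the maternal and germline list, 10 genes were annotated under their own names, and 7 of them (70.0%, beside 16.3% of all D. virilis genes) were above the background in both dilutions. The list is more abundant than most D. virilis genes. Of its 8 genes with at least 200 reads in both 20% libraries, 7 (87.5%) were called, beside 52.5% of all such D. virilis genes. Among all named D. virilis genes above this floor the share was 70.1%. The floor alone does not match abundance, since the share called rose further with the count at 20%. The oskar mRNA (osk) had 285 and 321 reads (16.7 and 16.7 CPM) at 1%, against 4 and 4 reads (0.321 and 0.270 CPM) at 0%, with ratios of 51.9 (20.1 to 192) and 62.1 (24.0 to 229). For exuperantia (exu), whose product helps to localise bicoid mRNA, there were 351 and 426 reads at 1%, against 29 and 37 reads at 0%. Its ratios were 8.82 (6.03 to 13.4) and 8.91 (6.36 to 12.8), lower than those of oskar, beside a level at 0% of 2.32 and 2.49 CPM. The mRNA of nanos (nos), a translational repressor at the posterior, had 75 and 101 reads at 1%, against 4 and 2 at 0%, and ratios of 13.7 (5.12 to 51.5) and 39.1 (10.5 to 327). The mRNA of vasa (vas), an RNA helicase of the germ plasm, had 87 and 83 reads at 1%, against 6 and 8 at 0%. The intervals of nanos in the 2 dilutions overlapped widely, so these few reads at 0% do not separate its 2 ratios.

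The other 3 called members were less abundant. Toll (Tl), the receptor of dorsoventral patterning, had 53 and 62 reads at 1%, against 1 and 1 at 0%. The mRNA of transformer 2 (tra2), a splicing factor of sex determination, had 52 and 57 reads at 1%, against 0 and 1 at 0%. The bicoid mRNA (bcd) had 37 and 35 reads at 1%, against 0 and 2 at 0%, which is at least 8.99-fold higher in the 2.5x dilution, counting 3 reads for the library with none, and a ratio of 13.5 (3.48 to 116) in the 5x dilution. These 3 genes lay between 482 and 940 reads in the 20% libraries, and each was called from 35 to 62 reads at 1%. The 3 members that were not called, stau, Sxl and tra, had the lowest counts of the list at 20%. For staufen (stau), an RNA-binding protein that carries maternal mRNAs, there were 16 and 18 reads at 1%, against 3 and 3 at 0%, with 230 and 258 reads at 20%. Its ratios of 3.89 (1.11 to 20.8) and 4.64 (1.36 to 24.6) lay above 1 but not above 2 over the whole interval. Sex-lethal (Sxl), the switch gene of sex determination, had 2 and 5 reads at 1%, against 0 and 2 at 0%, with 73 and 83 reads at 20%. Its target transformer (tra) had 0 reads in all 4 libraries compared and 16 and 20 reads at 20%. For Sxl and tra a difference at 1% was not detectable at the depth of the libraries.

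**Figure D1:**
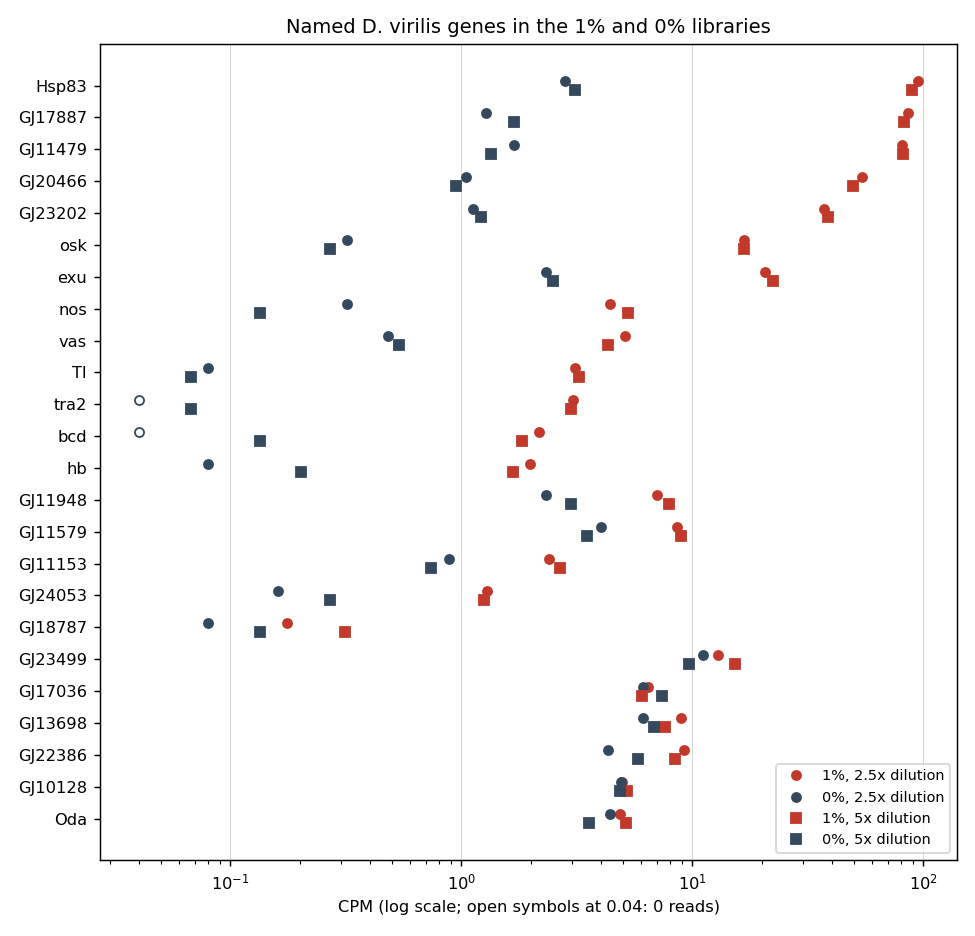
Level of named D. virilis genes in the 1% libraries (red) and the 0% libraries (dark blue), in CPM on a log axis, with circles for the 2.5x and squares for the 5x dilution and open symbols at 0.04 for 0 reads. Each symbol is 1 library. From Hsp83 down to hb the levels at 1% lie far to the right of those at 0%, whereas for GJ17036 and GJ10128 the 4 symbols lie together.

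The embryo transcribes segmentation and patterning genes from its own genome, apart from a few with a maternal supply. Of 22 named ones, 1 (4.55%) was above the background in both dilutions, beside 16.3% of all D. virilis genes. This was hunchback (hb), a gap gene with a maternal transcript, which had 34 and 32 reads at 1%, against 1 and 3 at 0%, and 551 and 688 reads at 20%. Its ratios were 24.8 (4.16 to 1007) and 8.25 (2.58 to 42.1). The other 21 had fewer than 20 reads in both 20% libraries, and 16 of the 22 had no read in any of the 10 libraries of the 2 dilutions. Among all 272 named D. virilis genes these counts were 175 and 143, so empty rows were common outside this list too. Even the next in the list, the gap gene tailless (tll), had 0 and 3 reads at 20%, and the mesoderm gene twist (twi) and the Hox gene Antp had 0 and 1 and 0 and 0. The detection of these genes at 1% could thus not be judged, since their rows were empty or nearly so at 20% too. In the same 20% libraries the D. melanogaster genes of the same names had at least 20 reads in both dilutions in 8 of 22 cases, and the D. virilis genes in 1 of 22. For Kruppel (Kr) there were 0 and 0 reads on the D. virilis gene and 100 and 117 on the D. melanogaster gene. For zerknullt (zen), a dorsal patterning gene, there were 0 and 0 reads on the D. virilis gene and 135 and 180 on the D. melanogaster gene. The D. melanogaster RNA made up most of these libraries and the stages in the 2 pools are not given more closely, so the counts of the 2 species are not on the same footing. In RNA of whole embryos, fewer cells with a transcript and less transcript per cell cannot be told apart.

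The remaining lists were mostly silent. Of 11 named heat shock and actin genes (6 Hsp70 genes, 4 actin genes and Hsp83, with no translation gene named), 1 (Hsp83) was called in both dilutions. That is 9.09%, beside 16.3% of all D. virilis genes, and the other 10 had fewer than 20 reads in both 20% libraries. The next 3 of this list were the actin genes ActC2, ActE2 and ActD1, with at most 5 reads in any library compared, and reads of such near-identical paralogs cannot be assigned with certainty. Of 56 named genes known mainly from later stages or adults, 53 had fewer than 20 reads in both 20% libraries. The 56 are mostly genes of odorant-binding proteins, with chorion and yolk proteins, rhodopsins, alcohol dehydrogenases and amylases. None was called in both dilutions (0%, beside 16.3% of all D. virilis genes), and 1 in the 5x dilution only. That gene, Acph, encodes acid phosphatase and entered the list by the first letters of its name; it had 11 and 26 reads at 1%, against 3 and 1 at 0%. The amylase gene Amy had 1 and 0 reads at 1%, against 0 and 0 at 0%, with 129 and 179 reads at 20%. The chorion protein gene Cp15 had no read in the 4 libraries and 22 and 20 reads at 20%, and the odorant-binding protein gene Obp19c had 5 and 6 reads at 1%, against 0 and 0 at 0%. Over all 272 D. virilis genes with a name rather than a number, 49 (18.0%) were called in both dilutions, near the 16.3% of all D. virilis genes. Of the 67 named genes with at least 200 reads in both 20% libraries, 47 (70.1%) were called in both, beside 1997 of all 3802 such genes (52.5%). Among the named genes, mod(mdg4), a chromatin insulator gene, came next after Hsp83, osk and exu by level at 20% and had 164 and 147 reads at 1%, against 6 and 8 at 0%.

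The share of genes called followed their count in the 20% library of the same dilution, which took no part in the comparison of 1% with 0%. The calls made up 5.21 and 5.87% of the D. virilis genes with 10 to 49 reads at 20%, 13.8 and 16.4% of those with 50 to 99 reads, and 28.0 and 28.4% of those with at least 100 but fewer than 200. The share was 46.8% (1066 of 2280 genes) and 47.8% (1070 of 2239) from 200 to under 500 reads, and 71.4 and 71.2% from 500 to under 1000. It reached 87.0 and 88.5% from 1000 to under 5000 reads, and all 27 and all 35 genes with 5000 reads or more were called. The share was higher at every step and nearly the same in both dilutions. The bin with 46.8 and 47.8% holds the 224 and 222 reads that give 12 reads at a twentieth of the rate. Genes with at least 200 reads at 20% made up 83.0 and 84.7% of the calls, and the called genes had a median of 447 and 479 reads at 20%, against 135 and 140 for the uncalled genes with a read there. Of the D. melanogaster genes binned in the same way, none was called in the bins from 200 reads up, and the highest share of any bin was 4.88 and 6.57%, with 10 to 49 reads. In that bin the D. virilis share of 5.21 and 5.87% was near this share, so that it says nothing particular about D. virilis genes. The bins match the species by the count at 20%, not at 1%. From 200 to under 500 reads at 20%, the median count at 1% was 15 and 14 for D. virilis genes, against 546 and 560.5 for D. melanogaster genes. From 10 to 49 reads it was 0 and 0, against 20 and 20. The lack of D. melanogaster calls in the upper bins is therefore no background at like counts.

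**Figure D2:**
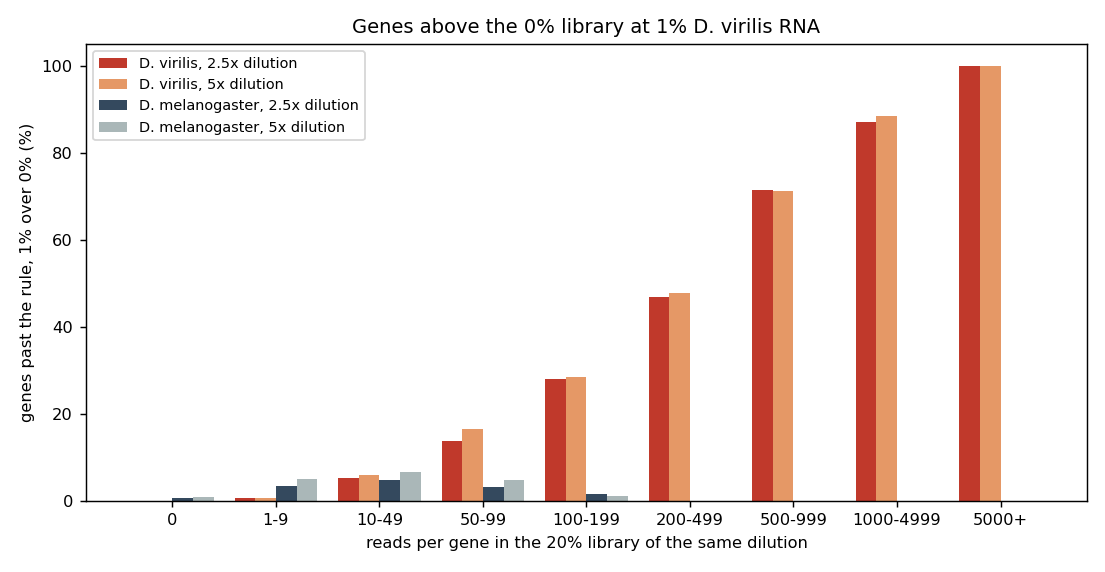
Percent of genes past the rule (interval of the ratio 1% over 0% wholly above 2) by reads per gene in the 20% library of the same dilution, for D. virilis (red, orange) and D. melanogaster (dark blue, grey) in the 2.5x and 5x dilutions. The D. virilis bars climb to 100% at 5000 reads or more, and the D. melanogaster bars stay at or under 6.57%.

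Genes without any read at 1% became rare as the count at 20% rose. From 200 to under 500 reads at 20%, 6.10 and 7.01% of the D. virilis genes had no read at 1%, from 500 to under 1000 reads 19 of 1058 and 24 of 1195 genes, and with 1000 or more none. Among the 3802 genes that both 20% libraries held with 200 reads or more, 156 and 157 had no read at 1%, and 92 (2.42%) had none in either dilution. These 92 were 59.0 and 58.6% of the genes at 0 in each dilution, so the genes missed were in large part shared by the libraries made from 1 cDNA. The most abundant of them, GJ23878, had 0 and 0 reads at 1% and at 0%, 104 and 116 at 5%, 287 and 219 at 10%, and 887 and 901 at 20%. Over the 92 genes the median was 51 and 54.5 reads at 5%, and none was at 0 in both 5% libraries. Most of them were thus counted in the next mixture, but some barely, such as GJ23789 with 2 and 2 reads at 5%. A pair of them had names. The meiotic gene mei-218 had 0 and 0 reads at 1% and 234 and 267 at 20%, and msl-1, which encodes a subunit of the dosage compensation complex, had 0 and 0 reads at 1% and 208 and 267 at 20%. GJ23878, GJ23789 and these named genes were chosen after their values were seen.

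**Figure D3:**
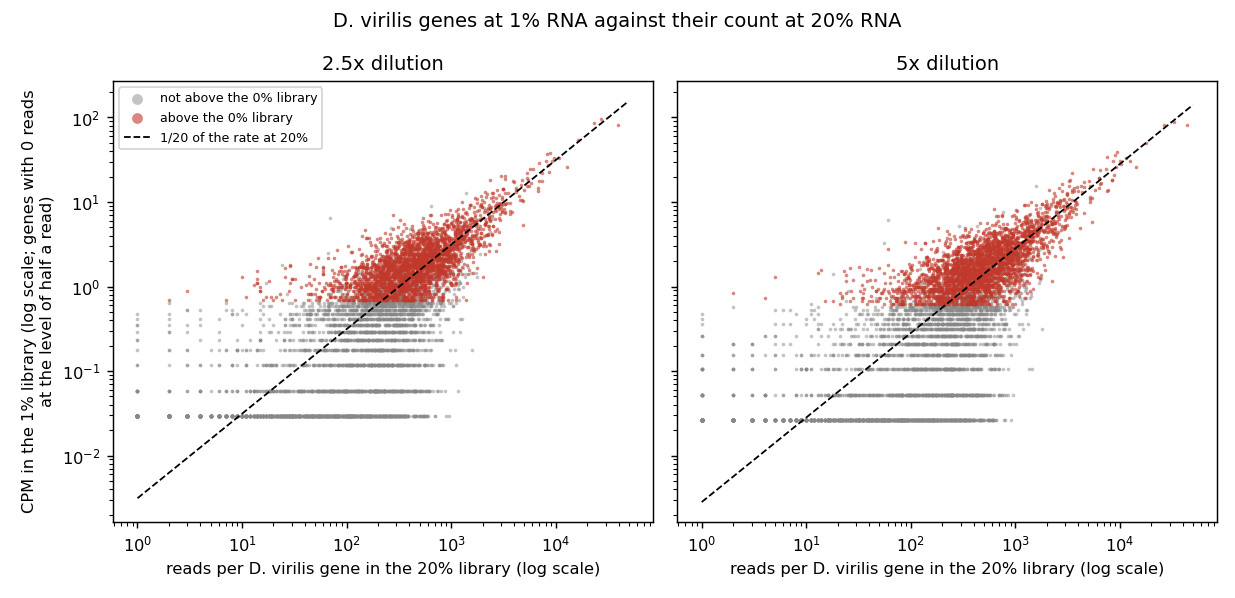
Level of each D. virilis gene in the 1% library (CPM, log axis, with genes at 0 reads drawn at the level of 0.5 reads) against its reads in the 20% library of the same dilution (log axis), for genes with a read at 20%. Red genes were above the 0% library by the rule, grey ones were not, and the dashed line is a twentieth of the rate at 20%. The cloud follows the line, narrows to the right, and breaks up into single reads at the bottom left.

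Abundance at 20% did not settle the outcome alone. Of those 3802 genes, 1997 were called in both dilutions, 652 in 1 and 1153 in neither, and the median count at 0% was 1 in each class and dilution. The median ratio of the scaled counts, 1% over 20%, was 0.0602 and 0.0606 in genes called in both, 0.0358 and 0.0386 in genes called in 1, and 0.0136 and 0.0136 in genes called in neither. This order follows in part from the rule, which uses the 1% count. The ratio of 5% over 20%, which the rule did not use, had medians of 0.240 and 0.241 in genes called in both and of 0.223 and 0.224 in genes called in neither. The genes missed at 1% were therefore close to the others at 5%.

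The spread of this ratio was measured on the 511 genes that had 1000 reads or more in both 20% libraries, where the counts are high enough to see it. The ratio 1% over 20% had a median of 0.0439 and 0.0445, a little under the 0.05 of the mixing. Its SD on the log2 scale was 0.884 and 0.880 over genes, whereas counting error alone gives 0.216 and 0.201. The SD was 0.427 and 0.431 for 5% over 20% and 0.505 and 0.523 for 10% over 20%. Between the dilutions at the same mixture it was far smaller, 0.357 for the 2.5x over the 5x library at 1% (0.291 from counting error) and 0.0980 at 20% (0.0507). The log2 ratio 1% over 20% of a gene in one dilution was close to that in the other, with a Pearson r of 0.913 across the 511 genes. The points share the cDNA of each mixture, genes are not replicates, and no p is given. The gene-specific part of the ratio 1% over 20% thus came back when the same cDNAs were tagmented again. The dilutions share the cDNA at 20% as well as at 1%, so the parts of the 2 mixtures are not separated. Pre-amplification and RNA sampling were not repeated at 1%, so their parts cannot be told apart here.

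**Figure D4:**
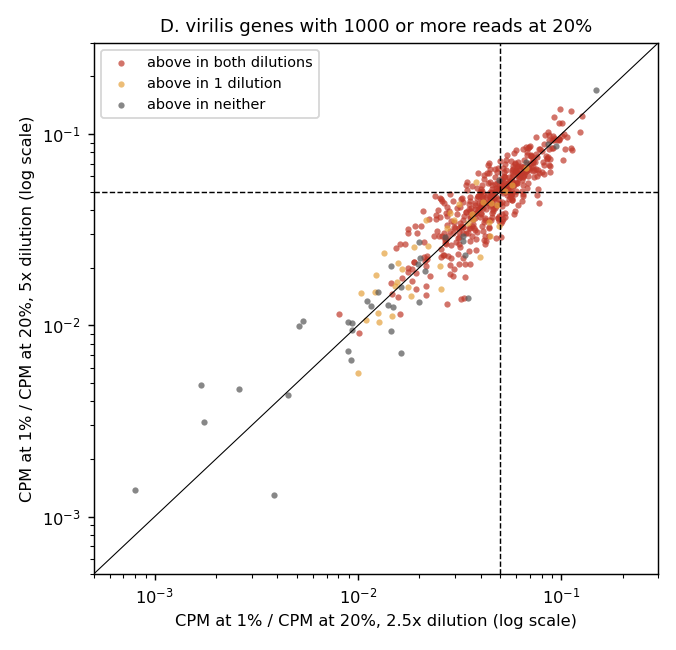
Ratio of the CPM at 1% to the CPM at 20% for the 511 D. virilis genes that had 1000 reads or more in both 20% libraries, in the 2.5x dilution (x axis) and the 5x dilution (y axis), both on log axes. Dashed lines mark the 0.05 of the mixing and the solid line marks equality. Points lie along the solid line over a wide range, and the genes called in neither dilution (grey) sit mostly at the low end.

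Of these 511 genes, 436 (85.3%) were called in both dilutions, 38 in 1 and 37 in neither. Among the 37, 13 had a ratio 1% over 20% under 0.0125 in both dilutions, where the mixing gives 0.05, 9 had at least 10 reads at 0% in both dilutions, and 15 had neither feature. No gene had both, which these cut-offs nearly exclude at such counts. The lowest ratio belonged to GJ11070, with 1 and 2 reads at 1%, against 3 and 3 at 0%, while it had 347 and 305 reads at 5% and 1167 and 1342 at 20%. GJ18787 had 3 and 6 reads at 1%, against 1 and 2 at 0%, and 291 and 294 at 5% and 1601 and 1783 at 20%. GJ17814 had 5 and 2 reads at 1%, against 1 and 0 at 0%, and 217 and 213 at 5% and 1218 and 1430 at 20%. The 3 genes were nearly silent at 1% in both dilutions and had more than 200 reads at 5%. The 17 genes of the 511 with a ratio under 0.0125 in both dilutions had a median 5% over 20% of 0.194 and 0.203, against 0.234 and 0.237 in all 511. They were picked by a low ratio 1% over 20%, and the ratio 5% over 20% shares its 20% count. Only their 5% counts took no part in that choice, so these 2 medians are not independent of it. At the other end, 5 genes had a ratio above 0.1 in both dilutions. GJ23499 had the highest, and its level at 0% was the highest of all D. virilis genes. GJ23334 followed with 172 and 192 reads at 1%, against 2 and 0 at 0%, and 1272 and 1425 at 20%, so that it was 0.126 and 0.125 of its rate at 20%. GJ19601 had 134 and 177 reads at 1%, against 6 and 7 at 0%, and 1124 and 1237 at 20%. Genes of like abundance at 20% thus had from 1 and 2 reads to 172 and 192 reads at 1%.

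**Figure D5:**
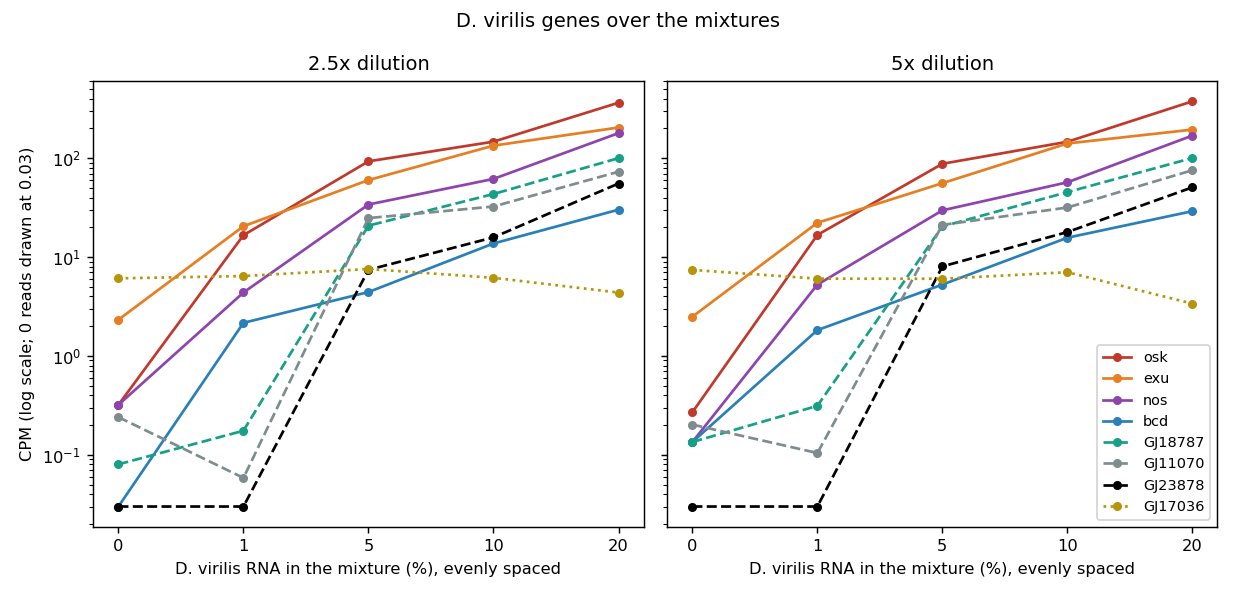
Level of 8 D. virilis genes (CPM, log axis, with 0 reads drawn at 0.03) over the mixtures with 0, 1, 5, 10 and 20% D. virilis RNA, evenly spaced, in the 2.5x and 5x dilutions. The maternal mRNAs osk, exu, nos and bcd (solid lines) are clearly above 0% from 1% on, GJ18787, GJ11070 and GJ23878 (dashed) have at most 6 reads at 1% and more than 100 at 5%, and GJ17036 (dotted) does not follow the mixture.

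The most abundant genes at 20% that were called in neither dilution included some with a high level at 0% and some with a low signal at 1%. GJ11948 had 120 and 152 reads at 1%, against 29 and 44 at 0%, and missed the rule narrowly with ratios of 3.02 (1.997 to 4.69) and 2.67 (1.90 to 3.83), the lower limit in the 2.5x dilution lying just under 2. GJ11579 had 147 and 171 reads at 1%, against 50 and 52 at 0%, and GJ11153 had 41 and 51 reads at 1%, against 11 and 11 at 0%. These 3 genes were higher at 1% than at 0% in both dilutions, with intervals wholly above 1. GJ24053 had 22 and 24 reads at 1%, against 2 and 4 at 0%, with 1774 and 1772 at 20%, and GJ18787, described above, was the fifth. Of the genes called in a single dilution, the most abundant at 20% was GJ21054. It had 72 and 98 reads at 1%, against 12 and 28 at 0%, with ratios of 4.37 (2.36 to 8.86) at 2.5x dilution and 2.71 (1.76 to 4.28) at 5x dilution. GJ16574 had 108 and 130 reads at 1%, against 31 and 22 at 0%, and GJ18203 had 119 and 120 reads at 1%, against 42 and 27 at 0%, and both were called in the 5x dilution only. In these 3 genes the level at 0% differed between the dilutions by a larger factor than the level at 1%. They were chosen as called in a single dilution, which favours a ratio that differs between the dilutions, so this is in part a result of the choice. In each of them the intervals of the 2 dilutions overlapped.

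The 0% libraries held D. virilis reads on many genes at low counts and on a few at high counts. The 10 genes with most reads took 8.10 and 8.52% of them. Of the 2672 and 2830 genes with a read at 0%, 1756 were shared by the dilutions (65.7 and 62.0% of each). Of the 124 and 144 genes with at least 10 reads, 95 were shared (76.6 and 66.0% of each). The genes that carried the background were therefore largely the same in both tagmentations. Of these 95 genes, 56 were nevertheless called in both dilutions, 10 in 1 and 29 in neither, and 67 had no read in the 0% library of the undiluted SMART-seq2 protocol, which came from another pre-amplification. That library held 1840644 reads on genes and 224 D. virilis reads (0.0122%), so a gene at 0 there may have a level of up to 1.63 CPM. Hsp83 and exu had 0 reads in it, against 2.81 and 3.10 CPM and 2.32 and 2.49 CPM in the 0% libraries of the dilutions. For both genes the limit lay under the level measured in the dilutions.

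At 9 of the 95 genes the level at 0% was at least 5% of that at 20% in both dilutions, and none of the 9 was called in both. The mixing adds about a twentieth of the level at 20% to the 1% library, so this cut-off by itself nearly excludes a call. GJ23499 was one of the 9, with 221 and 293 reads (12.9 and 15.3 CPM) at 1%, against 139 and 144 reads (11.1 and 9.70 CPM) at 0%, and 1392 and 1591 reads at 20%. GJ17036 had 110 and 116 reads (6.43 and 6.05 CPM) at 1%, against 76 and 110 reads (6.09 and 7.41 CPM) at 0%, and 70 and 60 reads (4.38 and 3.38 CPM) at 20%. GJ17036 therefore had no higher level at 20% than at 0%, whereas GJ23499 followed the mixture from a raised base. GJ13698 had 152 and 146 reads at 1%, against 76 and 101 at 0%, and 646 and 761 at 20%. GJ10128 had 85 and 100 reads at 1%, against 61 and 72 at 0%, and 266 and 290 at 20%. GJ22386, the fourth by level at 0%, had 157 and 161 reads at 1%, against 54 and 86 at 0%, and 1557 and 1720 at 20%. It was not one of the 9, since its level at 0% was 0.0445 and 0.0598 of that at 20%. All 5 genes were also present in the undiluted 0% library, at 15.8 CPM for GJ23499, 5.98 CPM for GJ17036, GJ13698 and GJ22386 and 6.52 CPM for GJ10128, from 29, 11 and 12 reads. Their background was thus about as high in a separate pre-amplification, whereas Hsp83 and exu had no read there. Among named genes this pattern was found for Oda, the ornithine decarboxylase antizyme, with 83 and 99 reads at 1%, against 55 and 53 at 0%, and 402 and 434 at 20%. Oda had 9 reads in the undiluted 0% library.

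Some genes were above the background at 1% although the 20% libraries hardly held them. In this range of counts at 20%, D. melanogaster genes were called about as often or more often. In both dilutions 21 called genes had fewer than 50 reads at 20%, 5 of them fewer than 20, and 4 had a higher level at 1% than at 20% in each dilution. GJ10749 had 14 and 16 reads at 1%, against 0 and 0 at 0%, which is at least 3.40-fold and 4.13-fold higher counting 3 reads for the libraries with none. It had 0 and 0 reads at 5%, 1 and 1 at 10% and 0 and 2 at 20%. GJ22003 had 15 and 25 reads at 1%, against 0 and 0 at 0%, and 0 and 0 at 5% and 3 and 5 at 20%. GJ12486 had 18 and 30 reads at 1%, against 1 and 0 at 0%, and 13 and 14 at 20%, and GJ18005 had 19 and 28 reads at 1%, against 0 and 0 at 0%, and 14 and 13 at 20%. GJ24017 had 12 and 13 reads at 1%, against 0 and 0 at 0%, but 90 and 70 at 10% and 7 and 18 at 20%. In these 5 genes the level did not follow the mixture. They were chosen as the lowest at 20% among the genes called in both dilutions. That choice asks for reads at 1% in both dilutions and a low level at 20%, so neither is a result. The counts at 5% and 10% took no part in it.

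In 4 genes the interval of the ratio lay wholly below 1 in a dilution, and in none of them in both. GJ22073 had 6 and 4 reads at 1%, against 5 and 11 at 0%, with a ratio of 0.281 (0.0654 to 0.950) in the 5x dilution. GJ19101 had 2 and 7 reads at 1%, against 8 and 4 at 0%. GJ12627 had 0 and 4 reads at 1%, against 7 and 1 at 0%, and GJ21592 had 0 and 4 reads at 1%, against 5 and 2 at 0%. GJ19101, GJ12627 and GJ21592 were lower at 1% in the 2.5x dilution only. These counts are among the lowest described here, and no D. virilis gene was lower at 1% by the rule.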

How the data were processed

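Total RNA of pooled embryos was extracted with TRIzol, and libraries were sequenced as single-end reads of 50 bp. The authors called bases with CASAVA 1.8 per the labels, mapped reads with STAR to the FlyBase 5.54 genomes of both species and counted them per gene name with HTSeq, without regard to strand. The deposited columns are labelled FPKM but hold raw whole-number counts, with 5 categories of uncounted reads, which were left out. Reads in those categories were 18.3 to 27.8% of the alignments in the libraries of the dilutions. PCR duplicates were not marked by molecular identifiers, so the intervals cover counting error only.

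Each count was scaled by the reads on genes of its library. For each gene the ratio 1% over 0% had an exact 95% interval (Clopper-Pearson, conditional on the summed count). The rule was a lower limit above 2 per dilution. A count of 0 was given a limit of 3 reads, and log2 ratios used a pseudocount of 0.5. The interval was tested on simulated data. Alternatives were other limits, scalings, a size rule of at least 10 reads and 4 times the 0% level, an exact binomial test, sampled counts, other 0% and 20% libraries, and edgeR 4.0.16 and DESeq2 1.42.0 with the dilution as a term, in R 4.3.3. Intervals came from scipy 1.17.1, tables from pandas 2.3.3 and numpy 2.4.6 and plots from matplotlib 3.10.9, all under Python 3.11.15.

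The members, the gene lists and the rules were chosen with earlier results of these data known. The rule for named genes took, among D. virilis genes, the 5 highest at 1% and the 5 lowest at 20% of those called in both dilutions, the 5 highest at 20% of those called in neither, the 5 highest at 0%, the 3 lowest and 3 highest ratios 1% over 20% from 1000 reads up, the 3 highest at 20% called in 1 dilution, the 4 highest at 20% of each list, and up to 5 with a ratio wholly below 1. The other members of the maternal list were added. No D. virilis sequence was used here.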

Additional observations from a re-analysis of the deposited data

Results flagged for a closer look

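In 5 named genes every 1% library of one dilution moved one way relative to its 0% library and that of the other dilution the opposite way, with 1 library on each side. The difference between the dilutions was not tested in any of them. The ratio of scaled counts, 1% over 0%, was 1.05 at 2.5x dilution and 0.816 at 5x dilution for GJ17036, with intervals of 0.780 to 1.43 and 0.623 to 1.07. For the actin gene ActE2 it was 2.19 and 0.258, from 3 and 1 reads at 1%, against 1 and 3 at 0%. For GJ19101 it was 0.182 and 1.35, from 2 and 7 reads at 1%, against 8 and 4 at 0%. For GJ12627 it was 0 and 3.10, from 0 and 4 reads at 1%, against 7 and 1 at 0%. For GJ21592 it was 0 and 1.55, from 0 and 4 reads at 1%, against 5 and 2 at 0%. For GJ17036 and ActE2 both intervals include 1, and for the other 3 genes the interval of the 5x dilution does.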

How the results depend on the processing

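Scaling by TMM or DESeq2 size factors over the D. melanogaster genes called 2335 D. virilis genes in both dilutions, all among the 2339. The exact limit mattered more. With a lower limit above 1, D. melanogaster calls were 2306 and 2218 in the 2.5x and 5x dilutions and 1587 in both, and the exact binomial test gave 2271, 2200 and 1561, while D. virilis calls in both dilutions were 3449 and 3443. With a limit above 4, D. virilis calls were 1349, 1641 and 1109 and D. melanogaster calls 27, 34 and 16. The sampled counts, which hold far fewer reads, gave 307, 267 and 160 D. virilis calls and 7, 5 and 0 D. melanogaster calls. The undiluted 0% library (D. virilis share 0.0122%), with 1840644 reads on genes, gave 336, 354 and 287 D. virilis calls. Summing the dilutions gave 3811. edgeR gave 4093 of 4618 D. virilis genes tested (88.6%), but also 1054 D. melanogaster genes higher (14.6%) and 2830 lower (39.3%) at 1% of 7200 tested, and DESeq2 gave 1921 D. virilis genes, where the spread is that between tagmentations of 1 cDNA. Without the 5x dilution 2734 genes were called and without the 2.5x dilution 2921.

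Binned by the 20% library of the other dilution, 44.3 and 51.3% of the genes from 200 to under 500 reads were called. Binned by the 20% TruSeq library it was 51.5 and 54.5%, and 77.8 and 78.6% from 1000 reads up. Binned by the undiluted SMART-seq2 library, which has fewer reads, it was 100% in both bins and dilutions. The median ratio 1% over 20% was 0.0399 and 0.0419 with the 0% level subtracted, 0.0421 and 0.0424 from 200 reads, and 0.0532 and 0.0498 from 5000 reads. It was 0.0413 and 0.0423 in the sampled counts from 100 reads. With TMM scaling over the D. melanogaster genes it was 0.0361 and 0.0365. The share of D. melanogaster RNA also differs between these mixtures, so this last pair is not to be set against 0.05. No paired analysis by replicate number was possible because the labels give none. The edgeR and DESeq2 fits with the dilution as a term set 1% against 0% within each dilution. Of the genes with fewer than 200 reads at 20%, 4.43 and 4.35% were called in the 2 dilutions. How far depth limited their calls was not tested.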
